A study of Mus musculus with 24 samples.

Results

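The 10 genes followed here act as brakes on, or transcriptional readouts of, receptor tyrosine kinase signalling, and their expression was read in mouse gliomas driven by PDGFB: Spry1, Spry2, Spry4, Spred1, Spred2, Dusp4, Dusp6, Etv1, Etv4 and Etv5. They were taken by symbol from a table of 55938 genes, where all 10 were found, and all 10 passed the filter on low counts. PDGFB had been introduced into the embryonic telencephalon through its ventricles, and the tumours that grew were dissected under fluorescence and sorted into fluorescent glioma cells and non-fluorescent surrounding cells. Each of 12 tumours gave 1 library of either kind, 24 in all, with 4 tumours at each of 3 stages. Asymptomatic animals were killed 33 to 34 days after transduction and gave tumours 3228A, 3228B, 3228D and 3229B. The early symptomatic group covers 35 to 50 days, with tumours 3108C, 3108D, 3109D and also 3145A. The late symptomatic group covers 100 to 175 days, with tumours 3054A, 3054B, 3054C and also 3057E. Early and late follow the letters that end the labels. Stage, day and the leading digits of the code go together and cannot be told apart. The PDGFB transfer is shared by all groups, no library comes from a brain without it, and the labels used here name neither the strain nor the promoter. The glioma library of 3057E was sorted by a red label and the other 11 by a green one.

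Receptor tyrosine kinases such as the PDGF receptors switch on Ras, which starts the cascade of Raf, MEK and ERK kinases. ERK signalling in turn induces its own inhibitors: Sprouty proteins (Spry1, Spry2, Spry4) and the related Spred proteins act upstream at the level of Ras and Raf, and the phosphatases Dusp4 and Dusp6 remove the activating phosphates from ERK. Etv1, Etv4 and Etv5 form the PEA3 group of ETS transcription factors and are widely read as transcriptional outputs of the same pathway. In the brain, PDGF acts through its receptor Pdgfra on oligodendrocyte precursor cells (OPC), which depend on it to divide.

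Spry1 and Spry2 had the largest differences between the sorted populations and Dusp6 the only one in the other direction, so the start regions of these 3 genes are shown. The 250 bases before the RefSeq start (build GRCm38.p6) are written 5′ to 3′ on the strand of the gene, with the core shared by ETS factor sites, GGAA or its reverse complement TTCC, in capitals. They lie at chr3:37639697-37639946 (plus strand) for Spry1, at chr14:105896820-105897069 (minus strand) for Spry2 and at chr10:99262981-99263230 (plus strand) for Dusp6.
Spry1: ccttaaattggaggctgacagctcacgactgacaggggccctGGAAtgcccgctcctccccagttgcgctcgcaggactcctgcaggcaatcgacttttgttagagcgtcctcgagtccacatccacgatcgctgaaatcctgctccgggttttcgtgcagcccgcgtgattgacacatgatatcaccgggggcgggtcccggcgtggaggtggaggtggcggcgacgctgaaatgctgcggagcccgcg
Spry2: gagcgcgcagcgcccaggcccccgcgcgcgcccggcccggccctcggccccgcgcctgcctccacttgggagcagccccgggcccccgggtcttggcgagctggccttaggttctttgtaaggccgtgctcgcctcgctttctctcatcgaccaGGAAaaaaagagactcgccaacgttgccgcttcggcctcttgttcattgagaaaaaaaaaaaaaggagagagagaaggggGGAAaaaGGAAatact
Dusp6: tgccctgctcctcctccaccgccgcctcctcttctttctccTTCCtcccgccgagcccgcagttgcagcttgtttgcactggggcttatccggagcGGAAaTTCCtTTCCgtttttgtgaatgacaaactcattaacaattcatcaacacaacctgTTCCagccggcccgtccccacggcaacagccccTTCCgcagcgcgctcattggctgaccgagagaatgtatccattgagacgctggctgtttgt
The core occurs 1 time in the Spry1 stretch, 3 times in that of Spry2 and 6 times in that of Dusp6. It is a short word, held by 93.4% of all 32851 RefSeq stretches of this length, with a median of 3 matches, and it was looked for only after the 4 motifs that follow. RefSeq windows of 300 bases were found for 7 of the 10 genes (9 windows, with 2 each for Etv1 and Etv5). None of the 9 held the ETS motif CCGGAAG, the AP-1 motif TGANTCA, the cyclic AMP response element TGACGTCA or the CArG box on either strand. Among all windows 8.86% held the ETS motif, 7.81% the AP-1 motif, 1.79% the cyclic AMP response element and 1.63% the CArG box. CCGGAAG contains the shorter core, and these matches describe letters, not binding.

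Library totals ran from 9.08e+06 to 1.55e+07 counts, and levels are given as CPM, counts scaled to a common library size by TMM. Pdgfb itself, the gene that was transferred, was read at 27.2 to 107 CPM in glioma libraries and at 12.8 to 80.1 CPM in surrounding libraries, so the ranges overlap. Whether reads of the transferred copy are part of this count is not given in the sources used here. In 1 respect labels and data disagree. Xist, transcribed from the inactive X chromosome of females, was at 1591 CPM in glioma cells of 3108D and 2.08 CPM in its surrounding cells. For 3109D the order was the other way, with 1.89 and 1079 CPM. Results that use the tumour code or these libraries are therefore given with and without both codes where they differ. In 3054C the Y-linked gene Ddx3y was at 2.96 CPM in glioma cells and 93.2 CPM in surrounding cells, while Xist was at 1.06 and 1.98 CPM.

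Glioma cells carried more of most of these feedback genes than surrounding cells (the plot of levels by stage). Over the 24 libraries, 8 of the 10 rose in glioma cells and 1 fell by edgeR's robust quasi-likelihood test at a Benjamini-Hochberg adjusted p under 0.05, while Dusp4 did not pass. Without tumour 3054C the counts were also 8 and 1, and the share of all genes in that fit is not given here. Among all 18810 genes tested 46.3% passed, 22% higher and 24.2% lower. The median log2 difference of the 10 genes was 0.80, against 0.06 over all genes tested. In 7 genes the glioma library was above the surrounding library of the same code in 12 of 12 tumours: Spry1, Spry2, Spry4, Spred1, Spred2, Etv1 and Etv4. Without 3108D and 3109D this held in 10 of 10, and with those codes exchanged in 12 of 12. The share of all genes with this pattern is not given here, so the count alone does not set the 7 apart. The ranges of the 12 glioma and 12 surrounding libraries overlapped for all 10 genes.

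**Figure D1:**
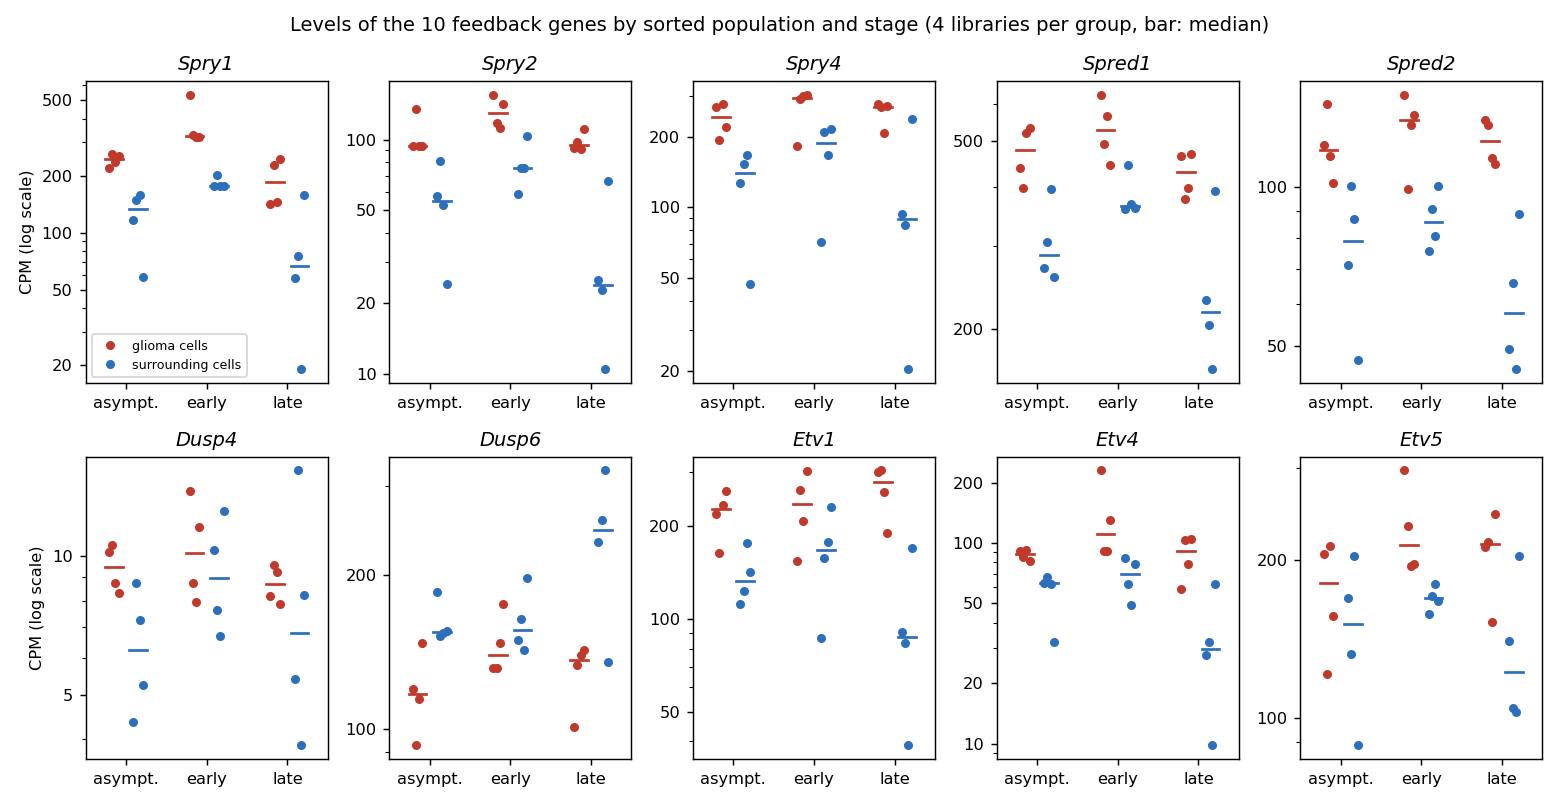
Each panel plots 1 gene, with CPM on a log scale against stage. Points are single libraries (red for glioma cells, blue for surrounding cells, 4 per group) and bars are medians. Red medians lie above blue ones at every stage, except for Dusp6, where the blue medians lie above. The points themselves stay apart at every stage for Spry2 alone and overlap at every stage for Dusp4. For the other genes red and blue points overlap at some but not all stages.

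The 3 Sprouty genes, which damp signalling between the receptor and Raf, all rose, and the log2 differences of Spry1 and Spry2 were the largest of the 10. Spry1 (chr3:37639947-37644598, plus strand, GRCm38) read 219, 261, 237 and 256 CPM in asymptomatic glioma libraries 3228A, 3228B, 3228D and 3229B. Its surrounding libraries read 117, 149.8, 158 and 58.0 CPM in the same order. In the early symptomatic glioma libraries 3108C, 3108D, 3109D and 3145A it stood at 536, 327, 319.8 and 319 CPM, and in their surrounding libraries at 176, 201, 176 and 177 CPM. In both populations every early symptomatic library was above every asymptomatic one. In the late symptomatic glioma libraries 3054A, 3054B, 3054C and 3057E it was at 141, 228, 145 and 244 CPM, against 57.8, 75.5, 19.0 and 158 CPM around them. The late surrounding library of 3057E thus lay above the glioma libraries of 3054A and 3054C. Over all stages Spry1 was 2.16-fold higher in glioma cells, a log2 difference of 1.11 ± 0.23 (SE, adjusted p = 0.000473). An antisense gene, Gm42922, shares 710 exon bases with Spry1. It was read at a mean of 0.857 CPM, and since the strand setting of the counting is not given in the sources used here, reads of the pair cannot be told apart.

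Spry2 (chr14:105891947-105896819, minus strand) was separated at each stage. Asymptomatic glioma libraries read 94.2, 135, 94.1 and 93.8 CPM, and the surrounding libraries 57.3, 81.2, 52.5 and 24.3 CPM, in the code order used for Spry1. Early symptomatic glioma libraries read 155, 118, 112 and 142 CPM, against 58.3, 76.0, 75.4 and 103.5 CPM. Late symptomatic glioma libraries read 91.9, 97.7, 91.2 and 111 CPM, against 25.2, 22.7, 10.4 and 66.4 CPM. No glioma library fell within the surrounding range of its own stage, although across stages the ranges met. The log2 difference over all stages was 1.12 ± 0.22 (SE, adjusted p = 0.00027), or 2.17-fold.

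Spry4 was more uneven among tumours. Its asymptomatic glioma libraries read 267, 194, 277 and 221 CPM and the surrounding ones 127, 153, 167 and 47.1 CPM. The early symptomatic values were 183, 291, 298 and 303 CPM in glioma and 71.5, 209.7, 167 and 217 CPM in surrounding cells. The late symptomatic values were 275.5, 268, 208 and 271 CPM in glioma and 93.6, 84.2, 20.3 and 238 CPM in surrounding cells. The surrounding cells of 3057E therefore held nearly as much Spry4 as its glioma cells, and those of 3054C held the least of any library. The log2 difference was 0.96 ± 0.27 (SE, adjusted p = 0.00679), or 1.94-fold.

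The Spred genes, membrane-bound relatives of Sprouty that bring the Ras inactivator neurofibromin to the membrane, rose by smaller steps. Spred1 (chr2:117121374-117182279, plus strand) read 438, 399, 519.8 and 534 CPM in asymptomatic glioma libraries and 269, 305, 396 and 257 CPM in the surrounding ones. At the early symptomatic stage it was at 627, 493, 565 and 444 CPM against 359, 444, 367 and 362 CPM. At the late stage it was at 464, 378, 397 and 469 CPM against 231, 204, 164 and 391 CPM. The asymptomatic groups did not overlap, while the early symptomatic groups met at the surrounding library of 3108D and the late ones at that of 3057E. Its log2 difference was 0.63 ± 0.13 (SE, adjusted p = 0.000384), or 1.55-fold. Spred2 (chr11:19924375-20024026, plus strand) ranged from 99.0 to 149.7 CPM with a median of 126 CPM in the 12 glioma libraries. In surrounding libraries it ranged from 45.1 to 100.4 CPM with a median of 78.3 CPM, and the overlap was small. The log2 difference was 0.73 ± 0.13 (SE), and its adjusted p of 7.65e-05 was the smallest of the 10 genes.

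Of the 2 phosphatases 1 fell and the other did not pass. Dusp6 (chr10:99263231-99267489, plus strand), the cytoplasmic phosphatase specific for ERK, was the only one of the 10 that fell. Asymptomatic glioma libraries read 119.7, 92.9, 114 and 148 CPM, all below the surrounding values of 186, 152, 154 and 155.5 CPM. Early symptomatic libraries read 131, 132, 147 and 175 CPM in glioma and 149, 164, 143 and 198 CPM in surrounding cells, which overlap. The late symptomatic glioma values of 101, 133.5, 139.5 and 143 CPM stood against 233, 257, 321 and 135 CPM. The surrounding cells of 3054A, 3054B and 3054C were high and those of 3057E lay within the glioma range. The log2 difference was -0.49 ± 0.12 (SE, adjusted p = 0.00217), a ratio of 0.71. Dusp6 was lower in glioma cells in 10 of 12 tumours, the exceptions being 3109D and 3057E. Without 3108D and 3109D it was lower in all but 1 of 10.

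Dusp4 (chr8:34807297-34819894, plus strand), a nuclear phosphatase of the same family, was expressed weakly, from 7.86 to 13.9 CPM in glioma and from 3.88 to 15.4 CPM in surrounding libraries. Its log2 difference of 0.28 ± 0.19 (SE) did not pass (adjusted p = 0.25), and the 95% interval from -0.12 to 0.68 leaves room for no difference and for a rise like that of Spred1. Glioma cells held more Dusp4 in 9 of 12 tumours.

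The 3 ETS factors rose. Etv1 (chr12:38779380-38870484, plus strand) read 219, 164, 235 and 259.7 CPM in asymptomatic glioma libraries and 112, 123, 177 and 142 CPM in the surrounding ones. Early symptomatic values were 154, 262, 209 and 302 CPM in glioma against 86.5, 158, 178 and 230.2 CPM. Late symptomatic values were 299.7, 303, 259 and 191 CPM against 90.9, 83.3, 38.9 and 169.9 CPM. Only the late groups did not overlap. The log2 difference was 0.88 ± 0.19 (SE, adjusted p = 0.000885), or 1.83-fold. Etv4 (chr11:101769742-101785371, minus strand) had a median of 91.2 CPM in glioma libraries, from 59.1 to 229.7 CPM, and of 62.4 CPM in surrounding libraries, from 9.83 to 84.1 CPM. Its log2 difference was 1.001 ± 0.223 (SE, adjusted p = 0.000906). Among glioma libraries that of 3108C held the highest Etv4, and also the highest Spry1, Spry2, Spred1, Spred2, Dusp4 and Etv5. It held the lowest Spry4 and Etv1.

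Etv5 (chr16:22381309-22439719, minus strand) differed least of the genes that passed. It ranged from 121 to 297 CPM, median 209 CPM, in glioma and from 88.7 to 204 CPM, median 163 CPM, in surrounding libraries. The log2 difference was 0.42 ± 0.15 (SE, adjusted p = 0.0241), with glioma higher in 11 of 12 tumours, the exception being 3228B. This call was lost when tumour 3054B (adjusted p = 0.066), 3108C (0.0688), 3228A (0.0578) or 3229B (0.0935) was left out, and without 3108D and 3109D together (0.0782). Over all alternatives its adjusted p ran from 0.00374 to 0.0935.

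**Figure D2:**
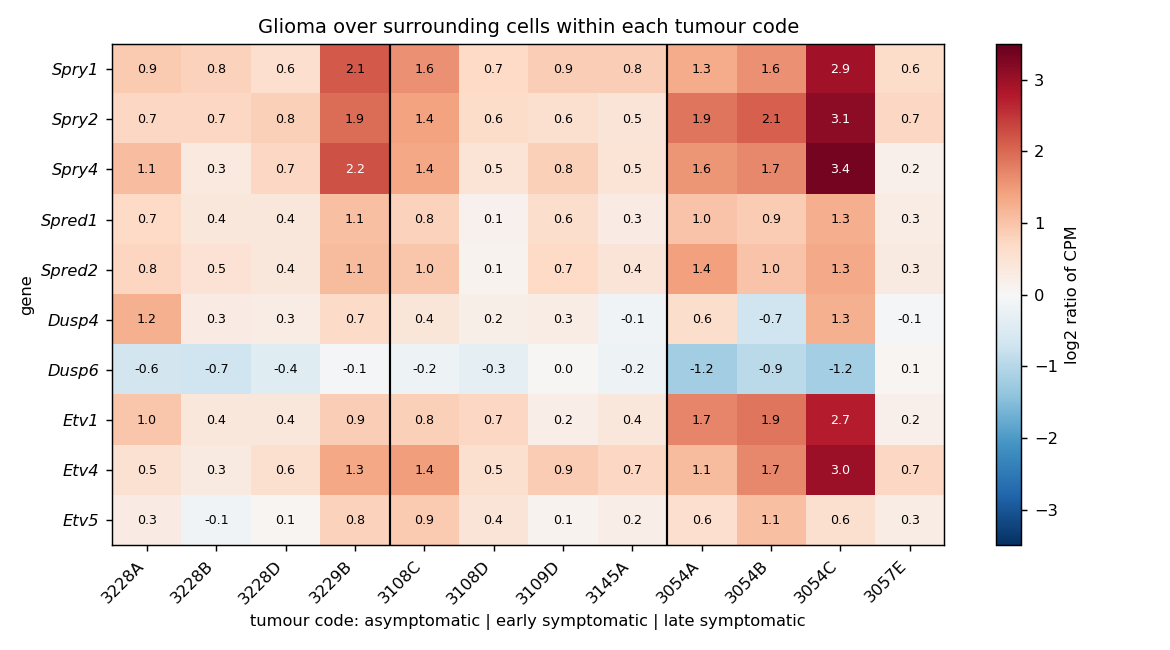
Each cell gives the log2 ratio of CPM in glioma over surrounding cells of 1 tumour code, with genes in rows and tumours in columns grouped by stage, red for higher in glioma and blue for lower. The 3054C column is the strongest for Spry1, Spry2, Spry4, Spred1, Dusp4, Etv1 and Etv4, and the 3057E column is pale.

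The size of the difference varied widely among tumours, as the grid of ratios shows. In 3054C the ratio of glioma to surrounding CPM reached 10.2 for Spry4, 8.74 for Spry2, 7.97 for Etv4, 7.64 for Spry1 and 6.66 for Etv1. The median ratios over the 12 tumours were 1.94, 1.73, 1.75, 1.84 and 1.72. In 3057E, of the same stage, the ratios of Spry4 and Etv1 were the lowest of all, at 1.14 and 1.12. Among the 12 surrounding libraries that of 3054C had the lowest level of 8 of the 10 genes, all but Etv5 and Dusp6, and the highest level of Dusp6. Among the late surrounding libraries that of 3057E had the highest level of all 8 genes that rose and the lowest of Dusp6.

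Since ERK feedback genes differ in length, levels between genes were compared as CPM per kilobase of exon. In glioma cells the medians ran from Spry1 (86.0) through Spred1 (68.8), Spry4 (56.6), Etv5 (51.0), Spry2 (49.9), Dusp6 (42.4), Etv4 (29.4), Spred2 (27.2) and Etv1 (18.6) to Dusp4 (3.29). Only the last step, from Etv1 to Dusp4, separated neighbours whose 12 libraries did not overlap. In surrounding cells Spry1 again led at 52.9, Dusp6 moved from the sixth place to the second at 51.0, and Spred1 followed at 49.0. No neighbours in the surrounding order were apart beyond the spread of their libraries. Dusp4 was last at 2.72.

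Within single stages each gene had a difference of the same sign as over all stages, but fewer passed (the plot of fold changes). For Dusp4 at the late stage the sign was not stable, since it turned negative under 7 of the alternative settings. In late symptomatic tumours 6 of the 10 genes rose and 1 fell, where 35.3% of all genes passed, 15.4% higher and 19.9% lower. Etv1 rose by 1.46 ± 0.34 on the log2 scale (SE, adjusted p = 0.00235), Spry2 by 1.65 ± 0.39 (0.00238), Spred2 by 0.97 ± 0.22 (0.00201), Etv4 by 1.38 ± 0.39 (0.00876), Spred1 by 0.79 ± 0.22 (0.00887) and Spry1 by 1.29 ± 0.40 (0.0165). Dusp6 fell by 0.87 ± 0.21 (0.00306). Spry4, at 1.23 ± 0.48 (0.0504), and Etv5, at 0.59 ± 0.26 (0.0804), did not pass, nor did Dusp4 at 0.09 ± 0.33 (0.867). With the tumour code as a block, which pairs the libraries of 1 brain, 9 of the 10 passed, Spry4 and Etv5 among them at adjusted p of 0.00776 and 0.0172, where 44.7% of all genes did. The glioma library of 3057E, by its deviations from the group mean, matched the surrounding library of 3054A better than its own. Without 3054C 7 passed, and the share of all genes in that fit is not given here. A fit to the 8 late libraries alone called 2, Spred2 and Etv1, and 18.5% of all genes. Without 3054A the calls of Spry1 and Spred1 were lost, without 3054B those of Spry1 and Etv4, and without 3057E the fold of Spry4 grew to 1.85 on the log2 scale (adjusted p = 0.00336). Limma voom with sample weights also called Spry4 (adjusted p = 0.000286) and Etv5 (0.0152). Over all alternatives the adjusted p ran from 0.000286 to 0.195 for Spry4 and from 0.0146 to 0.308 for Etv5.

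In asymptomatic tumours no member passed (5 had an unadjusted p under 0.05), where 13.8% of all genes did (26.7% by the unadjusted p). The groups nevertheless did not overlap for 6 of the 10 genes with glioma higher, Spry1, Spry2, Spry4, Spred1, Spred2 and Etv4, and for Dusp6 with glioma lower. That pattern held for 10.8% and 16.3% of all genes. With the tumour code as a block 4 members and 17.7% of all genes passed: Spry1 (log2 difference 1.10, adjusted p = 0.0398), Spry2 (1.05, 0.0403), Spred1 (0.63, 0.0382) and Spred2 (0.70, 0.0308). Over all alternatives the adjusted p of these 4 genes ran from 0.00342 to 0.472. DESeq2 called 2, Spred1 and Spred2, against 14.7% of all genes with an adjusted p, and limma voom with sample weights 7, against 28.9%. In the fit without the block, leaving out tumour 3057E brought 5 calls (Spry1, Spry2, Spred1, Spred2 and Dusp6) and leaving out 3054C brought 3 (Spry1, Spred1 and Spred2), although neither is an asymptomatic tumour. All groups share 1 estimate of the spread in this fit, and the cause of the gain was not tested. Of all genes 18.2% and 14.7% passed in these fits.

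In early symptomatic tumours no member passed either (4 had an unadjusted p under 0.05), against 13.5% of all genes (24.4% by the unadjusted p). DESeq2 also called 0, where 12.8% of all genes passed, and the fit with the tumour code as a block 0, where 15.3% did. Limma voom called 3, Spry1, Spred1 and Etv4, against 19.6%. Leaving out 3054C or 3057E brought 2 calls, Spry1 and Etv4, against 13.9% and 17.3%. Spry1, Spry2, Etv4 and Etv5 were higher in each glioma library than in each surrounding library, as were 7.91% of all genes. Late symptomatic tumours showed 3 such genes, Spry2, Spred2 and Etv1, against 9.21% of all genes. Spry1 had a log2 difference of 1.04 ± 0.40 (SE, adjusted p = 0.0991) at the early stage and Dusp6 one of -0.16 ± 0.21 (0.693).

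**Figure D3:**
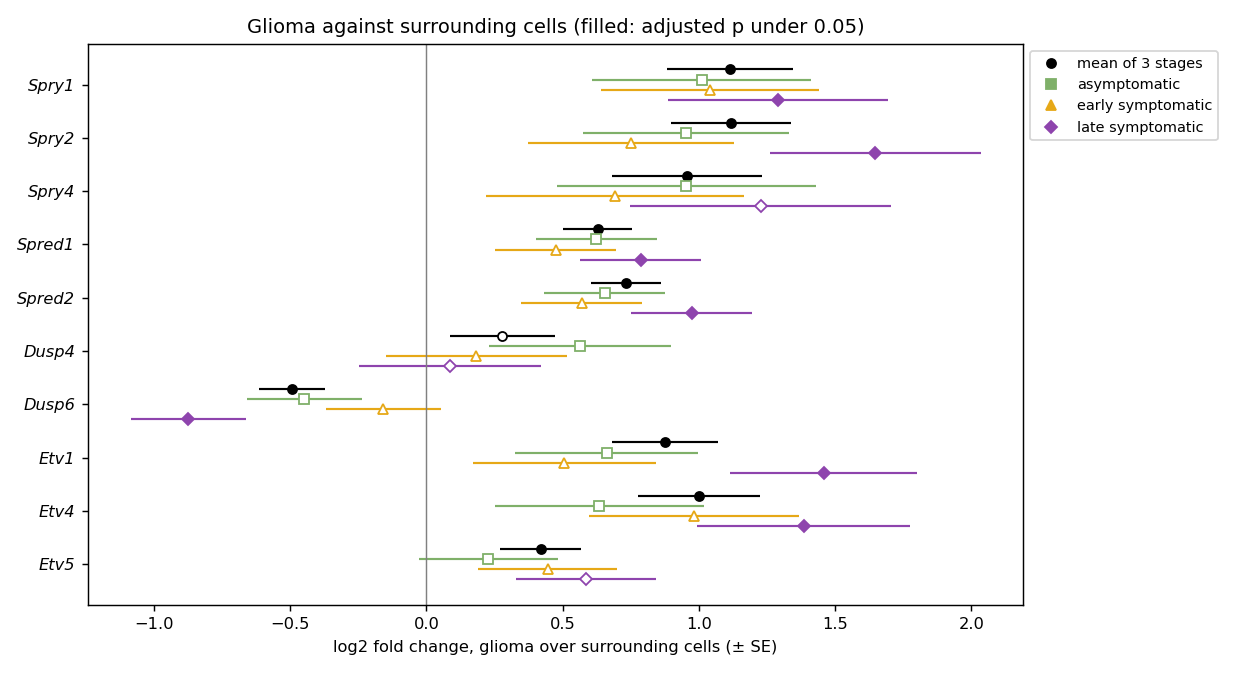
The horizontal axis is the log2 fold change of glioma over surrounding cells, with bars for 1 SE, and the rows are the 10 genes. Black circles average the 3 stages, and squares, triangles and diamonds give single stages, filled where the adjusted p is under 0.05. Diamonds, the late stage, are filled for 7 genes, and the one farthest from 0 is that of Spry2.

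Whether the difference between populations changed with stage was tested as an interaction, and no member passed in any of the 3 such tests. None of the 18810 genes did (0%). DESeq2 called no member either, and its shares of all genes in the interactions are not given here. The lowest unadjusted p of a member was that of Dusp6, whose glioma to surrounding difference was lower by 0.72 ± 0.30 on the log2 scale at the late than at the early stage (SE, adjusted p = 0.763). For Etv1 the difference was 0.95 ± 0.47 higher (0.8). Without tumour 3057E the Dusp6 difference passed, at -1.03 (adjusted p = 0.0296), as did 4.51% of all genes. Limma voom called 2 members in this test, Etv1 at 1.35 (0.0261) and Spry2, against 5.92% of all genes, and Spry2 alone in late symptomatic against asymptomatic, against 6.84%. No other alternative passed for Dusp6 or Etv1 in the interactions. Of the 3 interactions, only that of late against early symptomatic had a member with an unadjusted p under 0.05, which was Dusp6. At that threshold 6.2% of all genes stood in this interaction, 1.54% in early symptomatic against asymptomatic and 8.43% in late symptomatic against asymptomatic.

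Within glioma cells Spry1 changed most with stage, without passing the test. No member passed in early symptomatic against asymptomatic (0% of 16494 genes did), in late against early symptomatic (0.273%) or in late symptomatic against asymptomatic (0.158%). Members with an unadjusted p under 0.05 numbered 2, 3 and 0 in that order, against 4.91%, 19.7% and 14.8% of all genes. DESeq2 called 0, 1 and 0 members, and its share of all genes is given below for late against early symptomatic alone. The early symptomatic glioma libraries were all above the asymptomatic ones for Spry1 alone, a pattern held by 2.04% of all genes. From early to late the groups did not overlap for Spry1 and Spry2, both lower late, as for 4.09% of all genes. The late against early difference of Spry1 was -0.98 ± 0.23 on the log2 scale (SE, adjusted p = 0.0794), with a 95% interval from -1.46 to -0.49. DESeq2 called it (adjusted p = 0.00664), as did limma voom (0.00653), a fit without the count filter (0.0485) and a fit without 3057E (0.00494). Of all genes 5.34%, 15.8%, 0.436% and 17.2% passed in these fits. The range over all alternatives was 0.00494 to 0.238. Spry4, by contrast, had a difference of -0.07 ± 0.19 with an interval from -0.49 to 0.35, and Etv1 one of 0.18 ± 0.23 with an interval from -0.31 to 0.67.

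In surrounding cells 9 of the 10 members had a negative late against early log2 difference, all but Dusp6, again without passing. No member passed in early symptomatic against asymptomatic (0% of 17616 genes), in late against early symptomatic (1.48%) or in late symptomatic against asymptomatic (0%). Spry2 had a late against early log2 difference of -1.35 ± 0.49 (SE, adjusted p = 0.197), Spry1 one of -1.27 ± 0.49 (0.225) and Etv4 one of -1.08 ± 0.44 (0.245). Dusp6 had 0.50 ± 0.24 (0.327). Cell type markers moved in the same comparison, with a median log2 difference of -0.89 for 14 OPC, -1.32 for 12 astrocyte and -1.78 for 11 tested neuron markers, of which 0 passed, and of 3.16 for 10 T and NK cell markers, of which 4 rose. Their part in the members' differences was not tested. Members with an unadjusted p under 0.05 numbered 4 in this comparison, 0 in early symptomatic against asymptomatic and 1 in late symptomatic against asymptomatic, where 16.5%, 3.66% and 16% of all genes stood. DESeq2 called 0 members in each, and its shares of all genes in these comparisons are not given here. Only Spry1 was separated, higher early than asymptomatic (1.74% of all genes) and lower late than early (2.22%). These counts depended on 3057E. Without it 6 members passed late against early (Spry1, Spry2, Spred1, Etv1 and Etv4 lower and Dusp6 higher) and 3 late against asymptomatic (Spry2, Etv4 and Dusp6), where 18.9% and 16.4% of all genes passed. Limma voom with sample weights called 9 and 4 members, against 29.5% and 23.3% of all genes. Comparisons of the stages share the libraries of a stage and are not independent of each other.

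Beyond these 10 genes, members of the wider pathway were called in both directions. The lists that follow were chosen with earlier results of these data known, and their counts stand beside the 22% of all genes that rose and the 24.2% that fell. Of 16 tested ligands of receptor tyrosine kinases, 2 rose and 6 fell in glioma cells, with a median log2 difference of -0.04 against 0.06 over all genes. Tgfa, a ligand of the EGF receptor, was 0.75 ± 0.16 higher on the log2 scale. The insulin-like growth factors Igf2 and Igf1 were at -3.30 ± 0.62 and -1.69 ± 0.62, and the fibroblast growth factor Fgf1 fell by 1.003 ± 0.32. Of 16 receptors 5 rose and 5 fell, with a median of -0.32. Pdgfra, the receptor engaged by PDGF in OPC, rose by 1.09 ± 0.30 (adjusted p = 0.00541), from a median of 2019 CPM in surrounding to 3988 CPM in glioma libraries. Erbb4, a neuregulin receptor, rose by 0.98 ± 0.29, and Ntrk2, the BDNF receptor, by 0.73 ± 0.26. Pdgfrb, the receptor of pericytes, fell by 5.99 ± 0.55, the FGF receptor Fgfr2 fell by 2.84 ± 0.37, and Kdr, the VEGF receptor of endothelium, fell by 2.51 ± 0.25. Egfr, at -0.68 ± 0.31, did not pass (adjusted p = 0.0741).

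Of 21 members of the Ras to ERK cascade, 7 rose and 6 fell, with a median log2 difference of 0.01, where 22% of all genes rose and 24.2% fell. The adaptor Gab1 rose by 0.66 ± 0.19 and the exchange factor Sos1 by 0.47 ± 0.13. Rps6ka1, a kinase activated by ERK, fell by 3.63 ± 0.25, the adaptor Shc1 fell by 1.84 ± 0.17 and Mapk3, which encodes ERK1, fell by 1.72 ± 0.17. Of 24 other brakes 8 rose and 6 fell, with a median log2 difference of 0.12. Among them Socs2, a suppressor of cytokine signalling, rose by 2.003 ± 0.341, the fourth Sprouty gene Spry3 by 1.33 ± 0.26 and the Ras inactivator Rasal2 by 0.99 ± 0.17. The phosphatases Dusp1 and Dusp5 were lower, at -3.61 ± 0.36 and -1.37 ± 0.22, and the EGF receptor inhibitor Errfi1 fell by 1.47 ± 0.27. Il17rd, an inhibitor of FGF signalling also known as Sef, stood at 0.45 ± 0.23 and did not pass (adjusted p = 0.119).

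A further list held 25 targets of ERK signalling, both genes that ERK induces and factors that it phosphorylates, such as Elk1, Cic and Erf. Of these 6 rose and 13 fell in glioma cells, with a median log2 difference of -0.51, where 22% of all genes rose and 24.2% fell. Phlda1 rose by 1.03 ± 0.25, the cyclin Ccnd1 by 1.02 ± 0.32 and the zinc finger factor Egr3 by 0.74 ± 0.22. The receptor gene Epha2 fell by 4.71 ± 0.47, the urokinase receptor Plaur fell by 3.32 ± 0.48, and the AP-1 genes Junb and Fos were lower, at -2.53 ± 0.29 and -0.97 ± 0.23. Egr1, an early response gene, did not pass, at 0.01 ± 0.23 (adjusted p = 0.986).

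The sorted populations also differed in cell type markers. Of 14 OPC markers 11 rose in glioma cells and 0 fell, with a median log2 difference of 1.01. All 12 mature oligodendrocyte, all 12 microglia, all 12 endothelial and all 10 T and NK cell markers fell. So did 7 of 12 astrocyte markers and 9 of 10 tested markers of pericytes and smooth muscle, while 3 of 11 tested neuron markers rose. The neuron list had a median log2 difference of -0.38 and the astrocyte list one of -1.60. Summed, the astrocyte markers nonetheless had a median of 1898 CPM in glioma and 1769 CPM in surrounding libraries. Of the T and NK cell markers 1 was at 0 in every glioma library. The summed level of the OPC markers was 13320 to 22060 CPM in glioma and 799.8 to 15730 CPM in surrounding libraries, with none of the 14 at 0 in any library. The lowest surrounding value of the OPC markers was that of 3054C, and at the late stage the highest, 13570 CPM, was that of 3057E. Microglia markers summed to 119 to 2094 CPM in glioma libraries, with the highest in 3057E. In surrounding libraries they summed to 1801 to 15940 CPM, lowest in 3057E and highest in 3054C. In 3057E alone the glioma library held more of these markers than the surrounding library. In bulk libraries, fewer cells of a type and less RNA per cell cannot be told apart, and the part of cell type makeup in the differences above was not tested.

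In the surrounding libraries 8 of the 10 genes rose with the level of the OPC markers, taken as the mean log2(CPM + 1) of the 14 genes, and Dusp6 fell with it. Of 18796 genes tested other than the 14 OPC markers, 14.5% had a positive and 12.9% a negative r at least as strong as the weakest of these, 0.722. Pearson's r over 12 libraries was 0.906 for Spred1 (rho 0.944), 0.88 for Spry1 (0.713), 0.877 for Spry4 (0.804), 0.865 for Etv1 (0.72), 0.844 for Spry2 (0.664), 0.838 for Etv4 (0.441), 0.746 for Etv5 (0.832) and 0.722 for Spred2 (0.734). Dusp6 went the other way, at -0.858 (rho -0.664), and Dusp4 stood at 0.183 (0.133). Two-sided permutation tests with 100000 resamples gave the r of those 8 genes and of Dusp6 a raw p of 4e-05 to 0.00606, or 0.0008 to 0.0135 after Benjamini-Hochberg adjustment over the 20 relations computed. For rho the adjusted permutation p was 0.0006 to 0.0496, except for Etv4 at 0.254. With a pseudocount of 0.5 that of Spry2 and of Dusp6 was 0.0505 and no longer passed, and with Pdgfra in place of the list that of Dusp6 was 0.115. Dusp4 passed by neither (0.634 and 0.719). Without the 2 libraries farthest from the median OPC level, 3054B and 3054C, r was between 0.413 and 0.782 for the 8 genes and -0.486 for Dusp6, and none passed after adjustment. Among the 8 genes r fell most for Etv4, from 0.838 to 0.413, and least for Spred2, from 0.722 to 0.671. A test on 10 libraries also has less power, so the lost calls alone do not show that every relation rests on those 2. The rho of Spred1 was 0.903 without 3054B and 3054C (adjusted permutation p = 0.0158). In glioma libraries, where the OPC level varied less, no r passed, and that of Spred1 was nearest at 0.635 (adjusted permutation p = 0.0558). Its rho of 0.671 had an adjusted permutation p of 0.0496, which was 0.0505 with a pseudocount of 0.5 and 0.155 without the 2 farthest libraries. With Pdgfra alone in place of the list, Spred1 (0.854), Spry1 (0.795) and Etv4 (0.628) passed in glioma libraries, with adjusted permutation p of 0.0017, 0.00304 and 0.0391. By rho Spred1 alone passed (0.00907), while Spry1 (0.109) and Etv4 (0.163) did not.

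**Figure D4:**
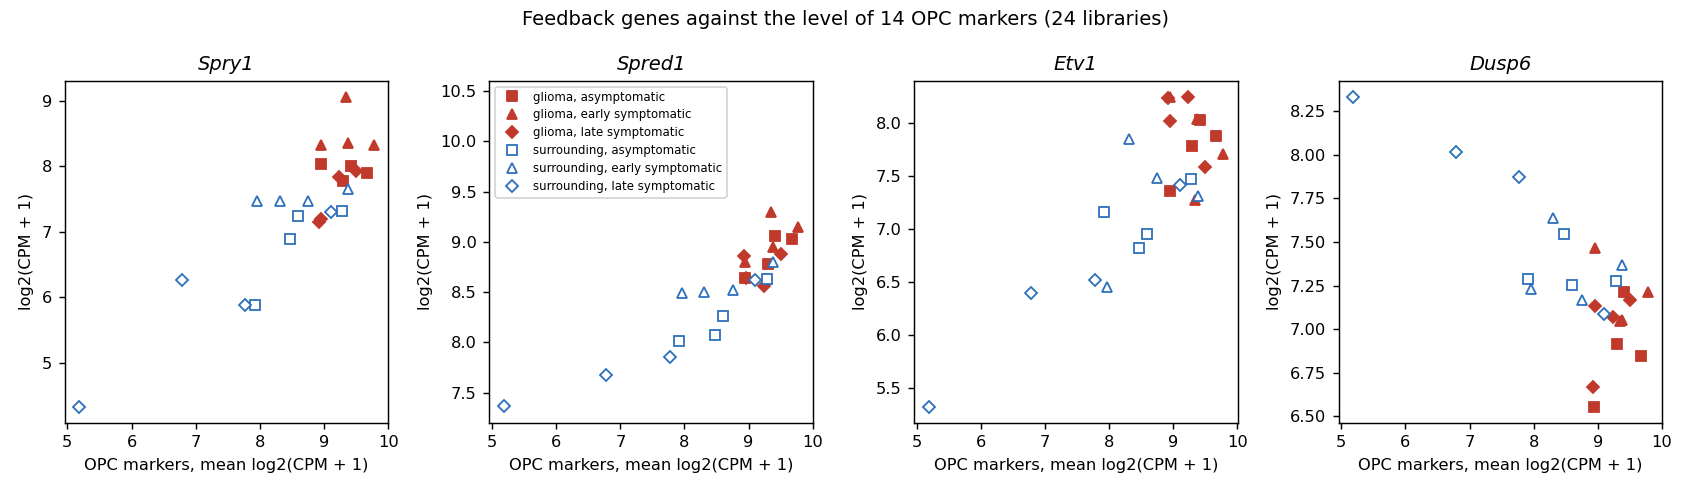
Each panel plots the log2(CPM + 1) of 1 gene against the mean log2(CPM + 1) of 14 OPC markers in 24 libraries, filled red for glioma and open blue for surrounding cells, with the marker shape giving the stage. Open diamonds of 3 late tumours spread to the left, with low Spry1, Spred1 and Etv1 and high Dusp6.

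Among themselves the genes were loosely tied in glioma cells. Over the 12 glioma libraries the 45 pairs had a median Pearson r of 0.244. It ran from -0.518 for Spry2 with Etv1 to 0.835 for Spry1 with Etv4. The library of 3108C was the highest for Spry1, Spry2 and Etv4 and the lowest for Etv1, and the r of these pairs without it is not given here. In surrounding cells the median was 0.749, from -0.84 for Spred1 with Dusp6 to 0.958 for Spry1 with Etv4. These values are descriptions over libraries that share their stage and depth. The genes named next are the best of 11170 by r, and the r that the best of so many genes reaches by chance was not computed. The pattern over the 12 glioma libraries most like that of Spry1 belonged to the neurexin gene Nrxn3 (r = 0.958, rho 0.909) and that most like Etv4 to the neuronal pentraxin gene Nptx2 (r = 0.978, rho 0.776). The glioma library of 3108C, at 229.7 CPM against a median of 91.2 CPM, stood apart for Etv4, and without it r was 0.93, an alternative chosen after seeing the data. By r they were, for Spry2, Sppl2b (0.897) and the pentraxin gene Nptx1 (0.878), for Spred1 Mfsd2a (0.908), for Dusp6 Cav2 (0.87), for Etv1 Dynll1 (0.903) and for Etv5 Sash1 (0.888). Spry4 was most like Ptpro (0.864), Spred2 most like B4galt5 (0.921) and Dusp4 most like Rnps1 (0.935). Without the library of 3108C the r of the named pairs ran from 0.788 (Spry4 with Ptpro) to 0.93 (Etv4 with Nptx2). It was lower than with that library for all of them but Dusp6 with Cav2 (0.876).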

How the data were processed

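RNA was extracted with the MinElute RNA micro kit and libraries were made with the CORALL Total RNA-Seq kit from polyA+ RNA, per the labels' protocols. The authors deposited expected counts, 1 value per gene and library, made with STAR 2.7.5c and RSEM 1.3.1 against GRCm38 (from the submitters' processing notes). The annotation release, strand setting and use of molecular identifiers are not given in the sources used here. Of the gene IDs 98.6% were found in GENCODE M21, which gave coordinates and exon lengths. PCR copies can make reads dependent, so counts are not all separate molecules. Mapping of near-identical gene copies rests on RSEM's estimates.

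Expected counts were rounded to whole numbers and fitted with edgeR 4.0.16 by its robust quasi-likelihood test, with TMM scaling, its filter set to 10 counts and 1 mean per group. Benjamini-Hochberg adjustment ran over all genes tested. The contrast of populations used all 24 libraries, and stages were set against each other within the 12 libraries of a population. Libraries of 1 tumour code come from the same animal per the labels. The correlation of deviations from the group means between same-coded libraries was 0.0247 to 0.483, with 3108D and 3109D lowest and each matching the other best, and with the glioma library of 3057E (0.116) matching the surrounding library of 3054A best. The chi-square per degree of freedom between libraries of a group was at least 20.7, so none was a copy of another.

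The members and all lists were chosen with earlier results of these data known. Of each pathway list the text names up to 3 higher and 3 lower genes of largest fold among those called and with mean log2 CPM not below 3, plus Pdgfra, Pdgfrb, Egfr, Il17rd, Fos and Egr1; 1 gene that this rule picks is not reported here. For likeness it names the genes of highest r. Xist and Pdgfb were named as checks. On simulated data, the test over both populations recovered 67% of 100 genes changed by 1 on the log2 scale and 95% of those changed by 2. That of late against early symptomatic glioma recovered 11% and 65%. Both simulations took their spread from all 24 libraries, while the stage test itself was fitted to the 12 glioma libraries. Its recovery at the spread of the glioma libraries alone was not computed. Alternatives were DESeq2 1.42.0, limma 3.58.1 voom with sample weights, DESeq2 size factors, no count filter or one at 50, a fit without the robust spread, fits to all 24 libraries or a single stage, each tumour left out, both codes 3108D and 3109D left out, and the tumour code as a block.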

Additional observations from a re-analysis of the deposited data

Results flagged for a closer look

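In 8 of 60 groups of 4 libraries, 1 library stood apart from the other three by Dixon's criterion at the 95% level, which chance alone gives in about 5% of groups. The glioma library of 3108C was flagged for both Spry1, at 536 CPM against 319 to 327 CPM in the others, and Spry4, at 183 CPM against 291 to 303 CPM. By this criterion it thus lay high in 1 Sprouty gene and low in another. The surrounding library of 3108D, whose Xist level goes against that of its glioma library, was highest for Spry1, at 201 CPM against 176 to 177 CPM, and for Spred1, at 444 CPM against 359 to 367 CPM.

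Spry2 reached 135 CPM in the asymptomatic glioma library of 3228B, while the others lay between 93.8 and 94.2 CPM. Spry4 was at 208 CPM in the late symptomatic glioma library of 3054C, against 268 to 276 CPM. Dusp6 was at 186 CPM in the asymptomatic surrounding library of 3228A, against 152 to 156 CPM. Etv4 was at 32.0 CPM in the asymptomatic surrounding library of 3229B, against 62.4 to 67.7 CPM.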

How the results depend on the processing

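Over all comparisons 1456 of 1556 recomputed log2 differences kept their sign and their side of the threshold, 14 lost a call, 71 gained one and 15 changed sign. Over both populations the number of genes that rose stayed at 7 to 8 and that of genes that fell at 1 in all 21 alternatives, and 205 of 210 differences were unchanged in sign and call. The 5 others were those of Etv5. The share of all genes that passed also moved between fits, for asymptomatic tumours from 13.8% to 28.9% with limma voom. Shares not printed above are not given here, so the counts of calls in this section do not alone set the members apart. For asymptomatic tumours the 0 calls became 2 with DESeq2, 7 with limma voom, 3 in the 8 libraries of the stage, 4 with the replicate block (tumour code), 4 with the block after exchanging 3108D and 3109D, and 0 to 5 with each tumour left out. For early symptomatic tumours they became 3 with limma voom, 2 in the 8 libraries and 0 to 2 with each tumour left out. For late symptomatic tumours the 7 calls became 2 in the 8 libraries, 9 with the block and 5 to 9 with each tumour left out. Limma voom gained calls of Spry4 and Etv5 at that stage (adjusted p = 0.000286 and 0.0152) and lost none. For late against early symptomatic, the 0 calls in glioma cells became 1 with DESeq2, with limma voom and without the count filter, and 0 to 1 with each tumour left out. In surrounding cells they became 9 with limma voom and 0 to 6. In the interaction they became 2 with limma voom and 0 to 1. For late symptomatic against asymptomatic, limma voom gave 4 in surrounding cells, where leaving out tumours gave 0 to 3, and 1 in the interaction. The block changed no other call of a member. Of the 9 relations to the OPC level that passed by r, 0 passed without the 2 farthest libraries. The late Dusp4 difference between populations, 0.09, became -0.0134 with DESeq2, -0.0396 with limma voom, -0.0175 with DESeq2 size factors, -0.0506 at a minimum count of 50, -0.0208 in the 8 libraries and -0.175 to 0.529 with each tumour left out. Other small differences that changed sign were, late against early symptomatic in glioma, Spry4 (0.0745 without 3108D and 3109D, -0.226 to 0.0221 with each tumour left out) and Spred2 (0.0555 with limma voom). In surrounding cells the same comparison of Dusp4 gave 0.127 with limma voom and -0.681 to 0.0234 with tumours left out. For early symptomatic against asymptomatic, leaving out tumours gave -0.0674 to 0.231 for Etv1 in glioma and -0.0479 to 0.111 for Dusp6 in surrounding cells. The cause of these changes was not tested. DESeq2 size factors moved the median log2 difference of all genes in late tumours from 0.04 to -0.06.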
